A study of Homo sapiens with 8 samples.

Results

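The genes described here belong to the unfolded protein response and the amino acid response. The ATF4 arm is 24 genes, the transcription factor ATF4 itself and genes that depend on it. The ER arm is 16 genes of the endoplasmic reticulum (ER): chaperone, folding and degradation genes, with the regulator XBP1 and the secreted factor MANF. All were chosen by symbol from a list of known genes of each arm, and 40 of 40 were found among the 25369 genes of the table. All 40 reached 10 normalized counts in at least 2 libraries, the filter that 13369 genes passed.

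The cells were MCF10A, a spontaneously immortalized line of human mammary epithelial cells, taken at passages 8 to 15 and grown for 7 days inside 1 of 4 hydrogels. Interpenetrating networks (IPNs) of alginate and reconstituted basement membrane (rBM) were either soft or, after more calcium crosslinking, stiff. The other pair held type I collagen: soft col:rBM mixed it with rBM, and stiff col was dense collagen without rBM, so this pair differs in composition as well as in stiffness. RNA was extracted and made into 2 sequencing libraries per gel, numbered replicate 1 and replicate 2 and described by the study as independent trials. This makes 8 libraries of whole gels.

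Unfolded proteins in the ER set off the sensors IRE1 and ATF6, which raise chaperones and degradation factors, and the kinase PERK, which phosphorylates the translation factor eIF2alpha. Other kinases, among them GCN2, which senses uncharged tRNA, phosphorylate the same factor when amino acids or heme run short, so ATF4 translation can go up with or without ER stress. ATF4 protein then switches on genes for amino acid synthesis and uptake together with feedback genes that let translation recover, and secretory epithelia such as the mammary gland rely on the ER side of the response to fold what they export.

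Promoter sequences were searched for known response elements, and some are printed here because 14 of 24 ATF4 arm genes were higher in replicate 2 of all 4 gels, with windows of the ER arm beside them for comparison. RefSeq promoter windows, from 250 bases before to 50 bases after an annotated start, were at hand for 35 of the 40 genes: 19 of the ATF4 arm and 16 of the ER arm. Both strands were searched for TGATGNAA, the C/EBP-ATF response element that ATF4 binds, for the ER stress response element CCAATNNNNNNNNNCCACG, for its second form ATTGGNCCACG, and for TGACGTG, a core that XBP1 and ATF6 bind. The ATTGG of the second form is the CCAAT of the first read on the opposite strand. TGATGNAA was present in 4 of 19 ATF4 arm promoters (ASNS, SLC3A2, SLC7A1 and CHAC1) and in 1 of 16 ER arm promoters (HERPUD1), beside 4.46% of all 27305 genes with a window. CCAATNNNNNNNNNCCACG was found in 0 of 19 and 6 of 16 (PDIA6, HSPA5, HSP90B1, CALR, XBP1 and CRELD2), beside 0.0916% of all genes. ATTGGNCCACG occurred in 0 of 19 and 3 of 16 (HYOU1, HERPUD1 and SDF2L1), beside 0.0696%, and TGACGTG in 0 of 19 and 1 of 16 (HYOU1), beside 2.4%. Elements and genes were both chosen as known parts of these responses. A share above that of all genes is therefore no finding of these data. A match describes letters in a window and is not by itself a bound site, and a window without a match leaves the rest of the gene unsearched. In the windows printed here, written 5' to 3' on the strand of the gene from the RefSeq table of build GRCh38.p14, capitals mark these matches, on either strand. Their positions come from matching the sequence to hg19, the build the reads were aligned to. The ASNS window (chr7:97501671-97501970, minus strand) and the CHAC1 window (chr15:41245419-41245718, plus strand) each hold 1 TGATGNAA, that of CHAC1 on the opposite strand, and a TRIB3 window (chr20:361689-361988, plus strand) holds none of the 4 motifs.
ASNS: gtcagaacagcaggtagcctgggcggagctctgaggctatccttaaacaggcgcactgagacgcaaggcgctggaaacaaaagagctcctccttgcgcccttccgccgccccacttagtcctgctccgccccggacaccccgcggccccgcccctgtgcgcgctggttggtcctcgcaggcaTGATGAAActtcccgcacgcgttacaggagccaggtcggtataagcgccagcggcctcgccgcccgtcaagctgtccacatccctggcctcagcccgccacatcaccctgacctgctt
CHAC1: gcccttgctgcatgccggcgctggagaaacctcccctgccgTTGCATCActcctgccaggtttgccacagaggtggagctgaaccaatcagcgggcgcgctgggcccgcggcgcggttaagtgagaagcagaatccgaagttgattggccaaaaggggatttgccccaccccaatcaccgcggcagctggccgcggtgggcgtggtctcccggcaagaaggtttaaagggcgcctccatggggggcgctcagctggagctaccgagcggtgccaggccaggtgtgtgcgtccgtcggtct
TRIB3: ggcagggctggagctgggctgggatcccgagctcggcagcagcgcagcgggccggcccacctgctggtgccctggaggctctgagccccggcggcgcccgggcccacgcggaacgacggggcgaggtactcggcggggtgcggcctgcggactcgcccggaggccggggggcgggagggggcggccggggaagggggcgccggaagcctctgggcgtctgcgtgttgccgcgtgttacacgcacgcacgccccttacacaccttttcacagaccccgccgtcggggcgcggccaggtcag
For the ER arm, the HSPA5 window (chr9:128003573-128003872, minus strand) holds 1 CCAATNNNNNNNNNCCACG and that of HSP90B1 (chr12:104323938-104324237, plus strand) holds 2, 1 on each strand. HERPUD1 (chr16:56965804-56966103, plus strand) holds 1 TGATGNAA and 1 ATTGGNCCACG that do not overlap, and SDF2L1 (chr22:21996341-21996640, plus strand) holds 1 ATTGGNCCACG.
HSPA5: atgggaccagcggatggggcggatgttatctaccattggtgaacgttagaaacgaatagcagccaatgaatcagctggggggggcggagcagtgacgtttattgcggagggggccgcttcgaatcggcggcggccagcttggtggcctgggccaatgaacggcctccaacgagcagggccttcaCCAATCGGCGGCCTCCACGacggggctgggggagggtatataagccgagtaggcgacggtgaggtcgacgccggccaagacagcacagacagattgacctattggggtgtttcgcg
HSP90B1: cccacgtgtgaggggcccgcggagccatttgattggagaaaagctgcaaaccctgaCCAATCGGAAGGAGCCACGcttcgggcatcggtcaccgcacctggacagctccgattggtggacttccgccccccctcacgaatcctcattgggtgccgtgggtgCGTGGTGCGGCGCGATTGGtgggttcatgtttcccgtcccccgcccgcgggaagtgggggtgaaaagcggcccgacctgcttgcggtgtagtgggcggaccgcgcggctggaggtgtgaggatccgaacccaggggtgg
HERPUD1: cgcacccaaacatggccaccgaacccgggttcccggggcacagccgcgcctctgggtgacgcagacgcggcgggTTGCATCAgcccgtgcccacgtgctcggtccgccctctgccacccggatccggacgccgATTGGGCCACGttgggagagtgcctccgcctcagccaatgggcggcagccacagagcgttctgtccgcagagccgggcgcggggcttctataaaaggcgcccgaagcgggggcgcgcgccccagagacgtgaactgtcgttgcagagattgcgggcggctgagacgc
SDF2L1: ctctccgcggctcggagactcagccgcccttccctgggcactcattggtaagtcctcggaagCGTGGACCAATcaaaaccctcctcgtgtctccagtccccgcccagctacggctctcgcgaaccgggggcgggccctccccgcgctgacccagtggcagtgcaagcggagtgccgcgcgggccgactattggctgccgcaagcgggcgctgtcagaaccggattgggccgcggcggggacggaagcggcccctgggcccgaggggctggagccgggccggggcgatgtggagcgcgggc

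Values are the authors' normalized counts, read counts divided by a factor for each library and rounded. The sums over genes ran from 14306848 in stiff IPN replicate 2 to 17999273 in soft IPN replicate 2, and the factors read from the values place 13.1 to 18.6 M reads on genes in each library, so that 3 reads equal 2.41 to 3.73 normalized counts. The depth of filtered reads that the study gives is higher. Sequencing was paired, and whether a count stands for a read or a pair is not stated. Every member lay above that floor in every library, the lowest value being 15 for CHAC1 in soft IPN replicate 1. The labelled line was checked against cell type markers. The 7 epithelial markers used were detected in all libraries, with KRT5 the most abundant by the mean normalized count over the 8 libraries (KRT17 exceeded it in both stiff IPN libraries), and they summed to 37452 and 88944 in soft IPN (replicates 1 and 2), 55176 and 137451 in stiff IPN, 30220 and 66864 in soft col:rBM, and 19194 and 55935 in stiff col. Of the markers of other cell types, the fibroblast gene COL1A2 and the leukocyte gene PTPRC were at 0 in all 8 libraries. In all, 3 of 7 fibroblast and 2 of 4 leukocyte markers were at or under the 3-read floor in every library. Others of these lists were present, with COL1A1 at 168 to 333, CD14 at 89 to 412 and CD68 at 324 to 5017. Fibroblast markers summed to between 775 and 1468 per library, with DCN the most abundant by that mean, endothelial markers to between 3 and 33, with PECAM1, and adipocyte markers to between 5 and 28, with PLIN1.

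Taken as a whole, each arm had its own pattern over the libraries. The level of an arm in a library is the mean over its genes of log2(normalized count + 1) minus the mean of the same gene over the 8 libraries. For the ATF4 arm this level was -0.52 and 0.54 in soft IPN (replicates 1 and 2), -0.39 and 0.04 in stiff IPN, -0.55 and 0.64 in soft col:rBM, and -0.14 and 0.38 in stiff col. All replicate 1 libraries lay below all replicate 2 libraries, whatever the gel, and the distance between the replicates was 1.06 in soft IPN, 0.43 in stiff IPN, 1.20 in soft col:rBM and 0.52 in stiff col. The ER arm stood at -0.01 and -0.16 in soft IPN, -0.18 and -0.01 in stiff IPN, 0.16 and -0.21 in soft col:rBM, and 0.48 and -0.07 in stiff col. Its highest library was stiff col replicate 1 and its lowest soft col:rBM replicate 2, and the replicates overlapped, with differences of -0.15 in soft IPN and 0.17 in stiff IPN, and of -0.38 in soft col:rBM and -0.55 in stiff col.

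**Figure D1:**
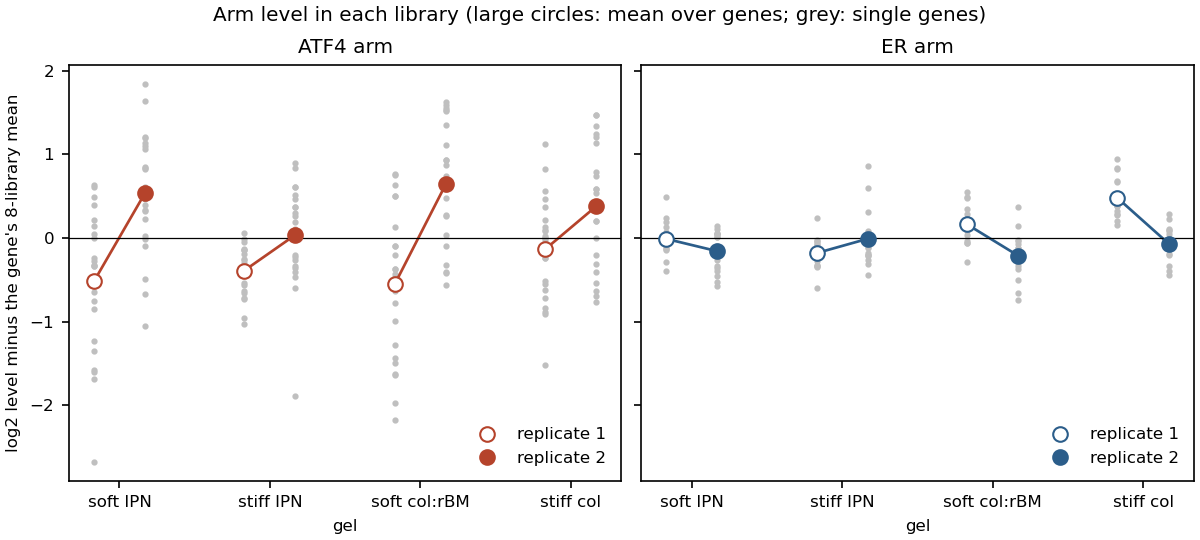
The level of each arm (vertical axis, log2 level minus the gene's mean over 8 libraries) by gel, with replicate 1 as open circles, replicate 2 as filled circles and single genes in grey. The ATF4 arm was at -0.55 to -0.14 in the replicate 1 libraries and at 0.04 to 0.64 in replicate 2, and the ER arm stayed between -0.21 and 0.48 with the replicates overlapping.

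Splitting the variation of each gene into shares for gel, replicate number and remainder gave the same contrast between the arms as a description. In the ATF4 arm the median share was 61.6% for the replicate number, 13.0% for the gel and 17.4% for the remainder, and the replicate number held the largest share in 18 of 24 genes. SLC3A2, the heavy chain of amino acid exchangers (88.5%), PSPH, the last enzyme of serine synthesis (87.9%), and ASNS, asparagine synthetase (87.7%), had the highest replicate shares of the arm. VLDLR, a lipoprotein receptor, went the other way, with 82.1% for the gel and 0.00964% for the replicate number. In the ER arm the median shares were 53.4% for the gel, 11.2% for the replicate number and 27.7% for the remainder, with the gel largest in 9 of 16 genes. XBP1, the factor that IRE1 activates by splicing (76.3%), and SEL1L, a scaffold of ER-associated degradation (71.4%), had the highest gel shares, while HSP90B1, an ER chaperone, gave 83.1% to the replicate number. Over all 13369 genes tested the medians were 39.1% for the gel, 29.5% for the replicate number and 19.2% for the remainder. The replicate number was largest in 37.4% of these genes and the gel in 5979. With 4 gels and 2 replicate numbers, the gel takes a larger share than the replicate number even where neither matters.

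**Figure D2:**
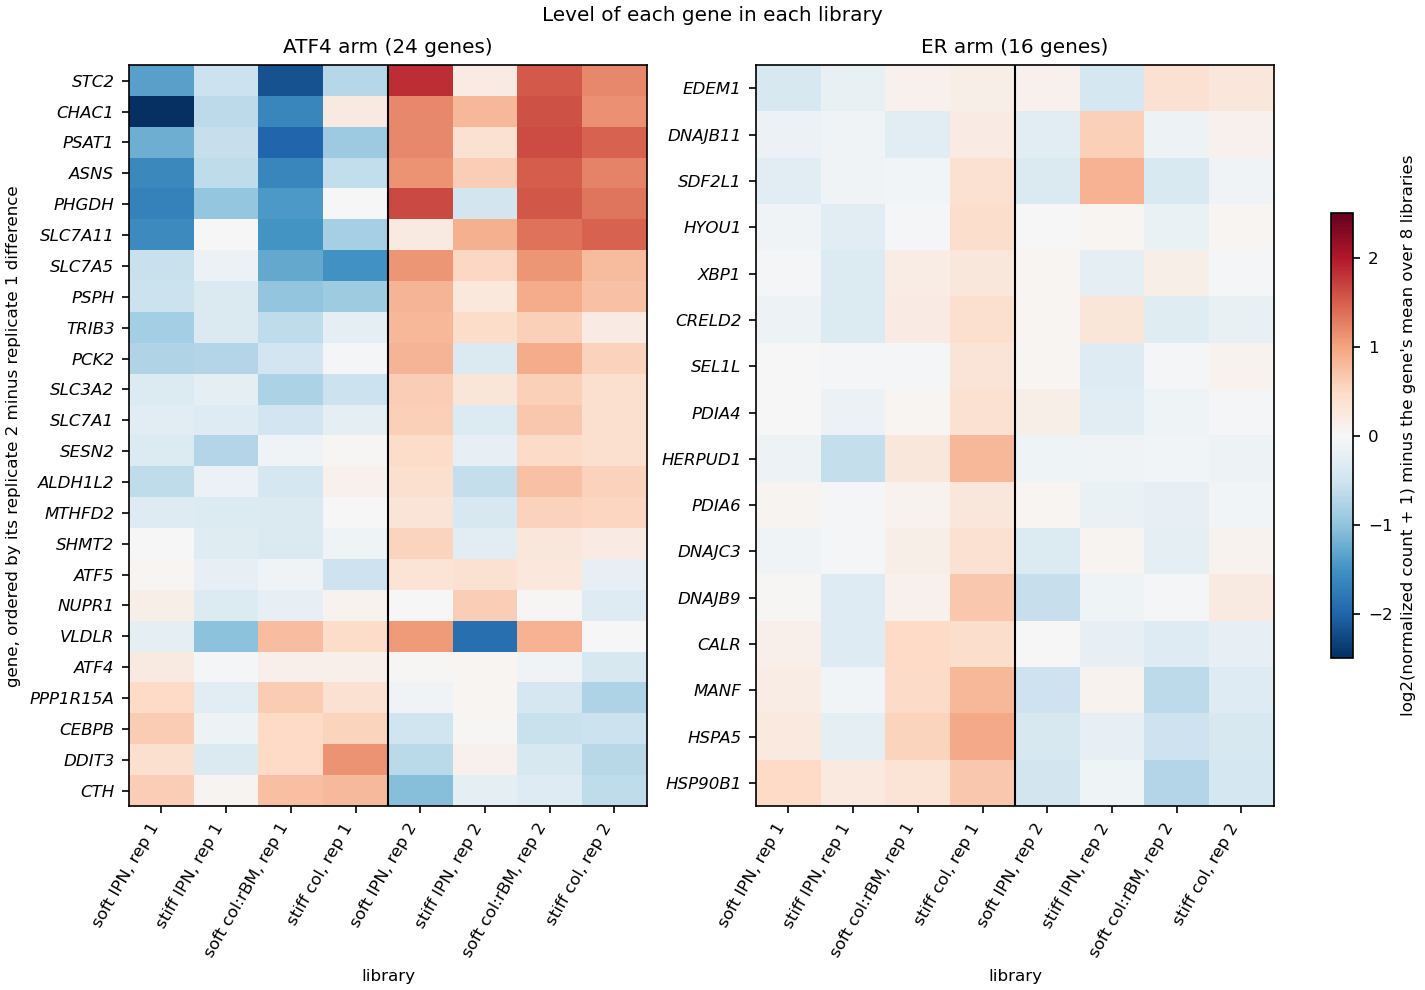
Each row is a gene, each column a library (replicate 1 left of the line, replicate 2 right), and colour gives log2(normalized count + 1) minus the gene's mean over 8 libraries, with genes ordered by their replicate difference and colours ending at 2.5 on either side. The upper genes of the ATF4 arm were low in replicate 1 and high in replicate 2, from STC2 (2.39 higher in replicate 2) down, while CTH (-1.12) and HSP90B1 (-0.87) at the bottom of each arm showed the reverse.

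The comparison of the replicate numbers asks how far the trials differed within gels. In the ATF4 arm all 4 amino acid transporters and 4 of 6 serine and one-carbon enzymes were higher in replicate 2, up to 2.34 for PSAT1 on the log2 scale, while CTH, which makes cysteine, was lower by 1.12. Of the 4 ER chaperones HSPA5 and HSP90B1 were lower, and the other two did not pass. In limma's moderated test with gel and replicate number as terms (n = 4 libraries for each number, Benjamini-Hochberg adjusted p under 0.05), 20 of the 40 genes passed, beside 3619 of 13369 genes (27.1%). Higher in replicate 2 were 15 members, all of the ATF4 arm, beside 1693 genes (12.7%), and lower were 5, with 2 of the ATF4 arm and 3 of the ER arm, beside 1926 genes (14.4%). The median difference was 0.62 in the ATF4 arm, -0.17 in the ER arm and -0.01 over all genes. That of the ER arm was -0.06 without either stiff col library and -0.30 without either stiff IPN library. In the ATF4 arm 14 genes were higher in replicate 2 of all 4 gels and 1 was lower in all 4; in the ER arm the counts were 0 and 2, and over all genes tested 2867 and 3082. The p-values measure how far the replicate difference varied over the 4 gels. With 1 trial behind each number, they do not measure the spread that further trials would show. A library of a whole gel cannot tell a smaller share of cells that express a gene from less RNA per cell. Leaving out a library changed these counts. Members that passed were 8 without soft IPN replicate 1 or 2 (beside 1596 and 1638 genes), 9 without soft col:rBM replicate 1 or 2 (1221 and 1214 genes) and 10 without stiff col replicate 1 or 2 (1208 and 1222 genes). They were 28 without stiff IPN replicate 1 or 2 (5845 and 5811 genes), against 20 with all 8.

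**Figure D3:**
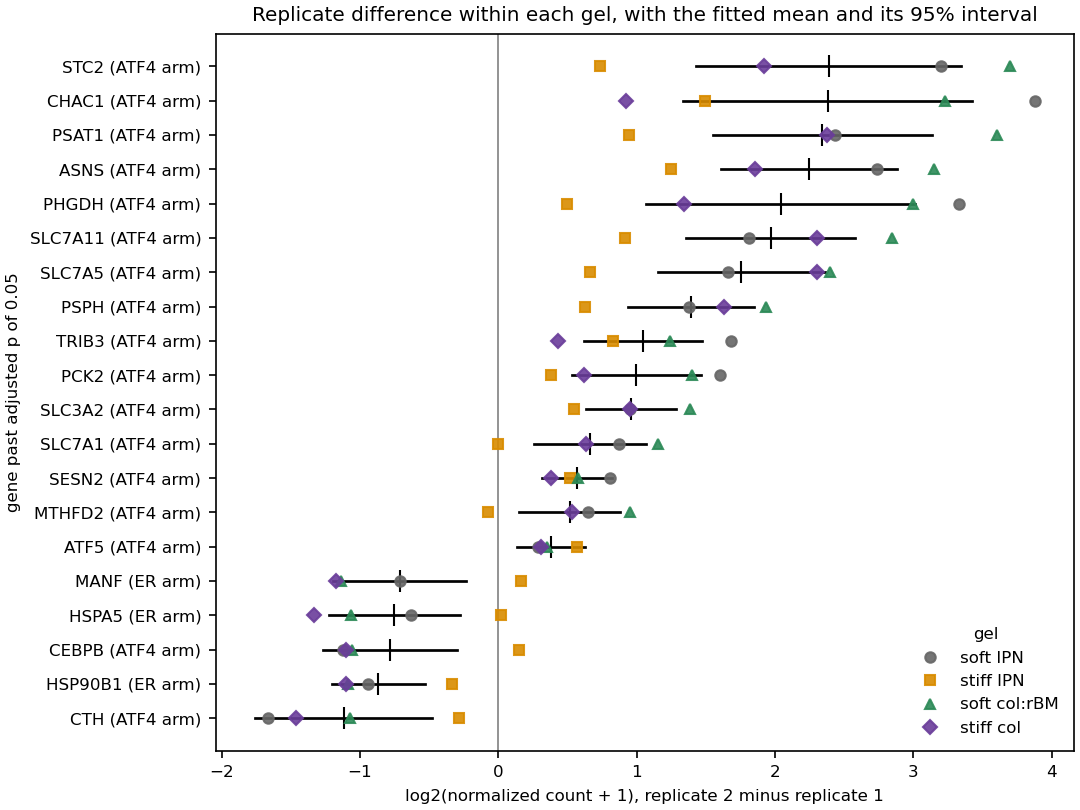
For the 20 genes that passed, the replicate 2 minus replicate 1 difference in log2(normalized count + 1) on the horizontal axis, as symbols for the 4 gels and a bar for the fitted mean with its 95% interval. Means ran from 2.39 for STC2 to -1.12 for CTH, and the stiff IPN square was the nearest to 0 for most genes, for example 0.73 for STC2 beside 3.20, 3.70 and 1.92 in soft IPN, soft col:rBM and stiff col.

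Among the transcription factors, the mRNA of ATF4 itself differed little between the trials while many of its targets moved. Here and below, paired values are normalized counts of replicate 1 and replicate 2. ATF4 had 12568 and 11006 in soft IPN, 10467 and 11164 in stiff IPN, 11815 and 10129 in soft col:rBM, and 11806 and 8169 in stiff col. Replicate 2 was the lower library in 3 gels and the higher in stiff IPN, and the replicates overlapped; the mean difference of -0.21 (SE 0.123) had an adjusted p of 0.225. DDIT3, which encodes CHOP, a factor tied to cell death under lasting stress, stood at 336 and 161 in soft IPN, 199 and 276 in stiff IPN, 363 and 193 in soft col:rBM, and 558 and 158 in stiff col. It was lower in replicate 2 outside stiff IPN, where it was higher, and its difference of -0.83 (SE 0.313, adjusted p = 0.0835) passed when either stiff IPN library was left out (-1.26). CEBPB, a C/EBP partner of ATF4, was at 3114 and 1429 in soft IPN, 1841 and 2043 in stiff IPN, 2846 and 1365 in soft col:rBM, and 2966 and 1383 in stiff col. Replicate 2 was lower in every gel but stiff IPN, and CEBPB fell by 0.78 in the fit (SE 0.210, adjusted p = 0.0291). ATF5, a related factor that like ATF4 is translated under stress, was measured at 534 and 651 in soft IPN, 450 and 669 in stiff IPN, 483 and 617 in soft col:rBM, and 361 and 446 in stiff col. It was higher in replicate 2 of all 4 gels, by 0.38 (SE 0.107, adjusted p = 0.0339), although stiff col replicate 2 was below 3 of the replicate 1 libraries. NUPR1, a stress-induced chromatin protein, ranged from 1169 to 2245 and differed by 0.16 (adjusted p = 0.58). The calls of CEBPB and ATF5 were lost when any library outside stiff IPN was left out, with adjusted p up to 0.14 and 0.156.

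Of the 4 feedback genes 3 were higher in replicate 2, and CHAC1 had the widest relative spread of all 40 genes. TRIB3, a pseudokinase that restrains ATF4 and CHOP, had 1314 and 4207 in soft IPN, 1838 and 3271 in stiff IPN, 1520 and 3587 in soft col:rBM, and 2011 and 2717 in stiff col. All replicate 2 libraries were above all replicate 1 libraries, and the difference was 1.05 (SE 0.186, adjusted p = 0.00783). CHAC1, which degrades glutathione and whose window with a TGATGNAA is printed above, ran at 15 and 234 in soft IPN, 64 and 182 in stiff IPN, 32 and 308 in soft col:rBM, and 118 and 224 in stiff col. Soft IPN and soft col:rBM replicate 1 were the lowest, the replicates did not overlap, and the highest library had 20.5 times the count of the lowest. CHAC1 differed by 2.38 (SE 0.454, adjusted p = 0.00961), a call lost without a library of soft IPN or of soft col:rBM (adjusted p up to 0.0641). SESN2, a leucine sensor that holds back mTORC1, was at 481 and 841 in soft IPN, 368 and 526 in stiff IPN, 570 and 850 in soft col:rBM, and 617 and 802 in stiff col. It was higher in replicate 2 of all 4 gels, by 0.57 (SE 0.110, adjusted p = 0.0103), but stiff IPN replicate 2 lay below the soft col:rBM and stiff col values of replicate 1. Its call too was lost without a library of soft IPN or soft col:rBM (adjusted p up to 0.0555). PPP1R15A, also called GADD34, directs the phosphatase that restores eIF2alpha; it ranged from 409 to 1084 with a difference of -0.62 (adjusted p = 0.0749).

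Serine synthesis and the one-carbon enzymes fed by it were higher in replicate 2 in 4 of 6 genes, with a group median of 0.97. PHGDH, the first enzyme of the pathway, had 198 and 1998 in soft IPN, 328 and 462 in stiff IPN, 235 and 1878 in soft col:rBM, and 640 and 1624 in stiff col. Replicate 2 was above replicate 1 in each gel, but stiff IPN replicate 2 stayed below stiff col replicate 1. The difference of 2.04 (SE 0.421, adjusted p = 0.0125) was not called without the low-value filter or without any library of soft IPN, soft col:rBM or stiff col (adjusted p up to 0.173). PSAT1, the aminotransferase that follows, was at 660 and 3563 in soft IPN, 1043 and 2006 in stiff IPN, 392 and 4787 in soft col:rBM, and 825 and 4289 in stiff col. Its lowest and highest values were both in soft col:rBM, the replicates did not overlap, and the difference was 2.34 (SE 0.344, adjusted p = 0.00473; up to 0.0704 without a stiff col library). PSPH, the phosphatase that releases serine, stood at 302 and 787 in soft IPN, 340 and 525 in stiff IPN, 219 and 838 in soft col:rBM, and 236 and 731 in stiff col. Every replicate 2 library was above every replicate 1 library, by 1.39 on average (SE 0.198, adjusted p = 0.00454). MTHFD2, the mitochondrial folate enzyme, was measured at 1902 and 2984 in soft IPN, 1890 and 1795 in stiff IPN, 1850 and 3575 in soft col:rBM, and 2384 and 3452 in stiff col. In stiff IPN its values were nearly level, and in the other gels replicate 2 was higher; the difference of 0.51 (SE 0.159, adjusted p = 0.0452) was lost without any library outside stiff IPN (adjusted p up to 0.198). The serine hydroxymethyltransferase SHMT2 (0.39, adjusted p = 0.0503) and the folate dehydrogenase ALDH1L2 (0.56, adjusted p = 0.122) did not pass.

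Other amino acid and carbon enzymes split in direction. ASNS, which makes asparagine and is a standard readout of the amino acid response, had 298 and 1995 in soft IPN, 585 and 1389 in stiff IPN, 293 and 2601 in soft col:rBM, and 593 and 2148 in stiff col. The lowest replicate 2 library, stiff IPN, was still above the highest replicate 1 library, stiff col. ASNS differed by 2.25 (95% interval 1.61 to 2.88, adjusted p = 0.00289), and it passed in each of 17 alternatives, from 1.95 to 2.58. PCK2, mitochondrial phosphoenolpyruvate carboxykinase, was at 409 and 1243 in soft IPN, 417 and 542 in stiff IPN, 500 and 1319 in soft col:rBM, and 678 and 1039 in stiff col. It was higher in replicate 2 of each gel, by 1.0 (SE 0.204, adjusted p = 0.012; up to 0.0656 without a soft IPN library), with stiff IPN replicate 2 below stiff col replicate 1. CTH, which makes cysteine from cystathionine, was scarce at 56 and 17 in soft IPN, 38 and 31 in stiff IPN, 62 and 29 in soft col:rBM, and 65 and 23 in stiff col. It was lower in replicate 2 of all 4 gels with no overlap, and it fell by 1.12 (SE 0.278, adjusted p = 0.0227; up to 0.106 without a library of any gel but stiff IPN).

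All 4 transporters were higher in replicate 2. SLC7A11, the cystine-glutamate exchanger xCT, had 380 and 1334 in soft IPN, 1128 and 2125 in stiff IPN, 404 and 2910 in soft col:rBM, and 640 and 3162 in stiff col. Replicate 2 was higher in every gel and the replicates did not overlap, with stiff IPN replicate 1 the closest to the replicate 2 range; the difference was 1.97 (SE 0.265, adjusted p = 0.0039). SLC7A5, the large neutral amino acid carrier LAT1, stood at 6943 and 21943 in soft IPN, 9212 and 14590 in stiff IPN, 4198 and 22106 in soft col:rBM, and 3563 and 17603 in stiff col. Stiff col replicate 1 was the lowest and soft col:rBM replicate 2 the highest, and SLC7A5 differed by 1.76 (SE 0.261, adjusted p = 0.00488). SLC3A2, the chain that LAT1 and xCT share, was at 3762 and 7256 in soft IPN, 4017 and 5856 in stiff IPN, 2770 and 7241 in soft col:rBM, and 3266 and 6329 in stiff col. No replicate 1 library reached the lowest of replicate 2, and the difference was 0.96 (SE 0.140, adjusted p = 0.00467). SLC7A1, the cationic amino acid carrier CAT1, was measured at 2012 and 3690 in soft IPN, 1945 and 1937 in stiff IPN, 1743 and 3877 in soft col:rBM, and 2070 and 3204 in stiff col. Stiff IPN was level between the trials and the other gels were higher in replicate 2. The mean difference over all 4 gels was 0.66 (SE 0.175, adjusted p = 0.0279, and up to 0.129 without a library outside stiff IPN).

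Of the secreted and surface members, STC2 passed between the replicates and VLDLR did not. STC2, a secreted glycoprotein induced by ER stress and low oxygen, had 466 and 4277 in soft IPN, 824 and 1368 in stiff IPN, 264 and 3445 in soft col:rBM, and 728 and 2763 in stiff col. Its replicates did not overlap, and the highest library, soft IPN replicate 2, held 16.2 times the count of the lowest, soft col:rBM replicate 1. STC2 had the largest mean difference of the 40 genes, 2.39 (SE 0.416, adjusted p = 0.0074), and the call was lost without any library outside stiff IPN (adjusted p up to 0.0978). VLDLR was at 204 and 502 in soft IPN, 117 and 64 in stiff IPN, 409 and 442 in soft col:rBM, and 333 and 240 in stiff col. Both stiff IPN libraries were the lowest of the 8, and the replicate difference of 0.02 (SE 0.310) had an adjusted p of 0.97.

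Of the 4 chaperones of the ER arm, HSPA5 and HSP90B1 were lower in replicate 2. HSPA5, also called BiP, the Hsp70 of the ER and the usual marker of ER stress, had 18138 and 11729 in soft IPN, 13145 and 13345 in stiff IPN, 22607 and 10819 in soft col:rBM, and 29535 and 11705 in stiff col. Stiff IPN was level between the trials, and in the other gels replicate 1 was higher, most of all in stiff col; HSPA5 fell by 0.75 in the fit (SE 0.205, adjusted p = 0.0306; up to 0.117 without a library outside stiff IPN). HSP90B1, the ER form of Hsp90, was at 22384 and 11646 in soft IPN, 18772 and 14854 in stiff IPN, 20310 and 9546 in soft col:rBM, and 25289 and 11775 in stiff col. Every replicate 1 library was above every replicate 2 library, and HSP90B1 fell by 0.87 (SE 0.146, adjusted p = 0.00688), a call kept in each of 17 alternatives, with differences from -1.04 to -0.79. Its window and that of HSPA5, printed above, share the element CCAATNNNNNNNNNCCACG. CALR, the calcium-binding lectin chaperone calreticulin, was measured at 11524 and 10535 in soft IPN, 8342 and 9081 in stiff IPN, 14728 and 8344 in soft col:rBM, and 14279 and 9089 in stiff col. The highest values were the replicate 1 libraries of the collagen gels, the other 6 lay between 8342 and 11524, and the difference was -0.37 (SE 0.165, adjusted p = 0.129). HYOU1, which exchanges nucleotide on BiP, stood at 1994 and 2154 in soft IPN, 1765 and 2210 in stiff IPN, 2069 and 1896 in soft col:rBM, and 2904 and 2208 in stiff col. Stiff col replicate 1 was the highest and the replicates overlapped, with a difference of -0.02 (adjusted p = 0.918).

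**Figure D4:**
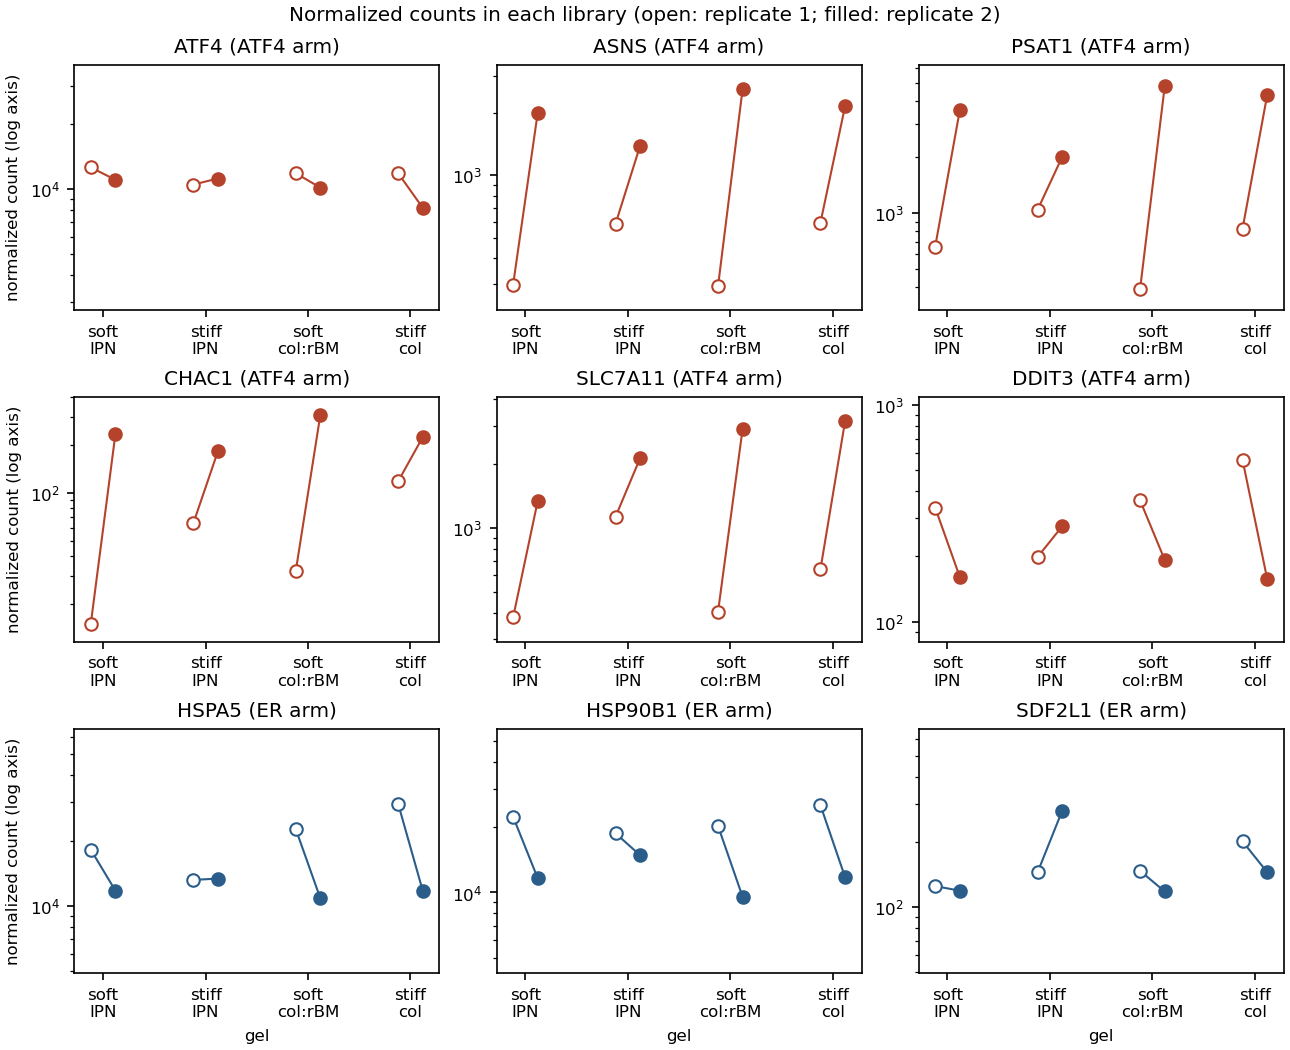
Normalized counts (log axis) of 9 genes in each gel, with a line from replicate 1 (open circle) to replicate 2 (filled circle). ASNS, PSAT1, CHAC1 and SLC7A11 were higher in replicate 2 of each gel, HSP90B1 was lower in each, and DDIT3 was lower except in stiff IPN (199 and 276).

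The co-chaperones of BiP and the oxidative folding genes did not pass between replicates. DNAJB9, an ER J-domain protein that returns IRE1 to rest, had 438 and 288 in soft IPN, 343 and 396 in stiff IPN, 464 and 422 in soft col:rBM, and 687 and 502 in stiff col. Stiff col held the highest values of either replicate, and the replicate difference was -0.25 (SE 0.150, adjusted p = 0.249). SDF2L1, a partner of ER J-domain proteins whose window holds an ATTGGNCCACG, was at 125 and 119 in soft IPN, 145 and 279 in stiff IPN, 147 and 118 in soft col:rBM, and 201 and 145 in stiff col. Stiff IPN replicate 2 was the highest library, and the difference of 0.02 (SE 0.237) had an adjusted p of 0.957. DNAJC3, which inhibits PERK, and DNAJB11, a J-domain partner of BiP, ranged from 1160 to 1909 and from 761 to 1405, with differences of -0.21 and 0.16 (adjusted p = 0.178 and 0.448). CRELD2, an ER protein with isomerase activity, stood at 316 and 356 in soft IPN, 272 and 427 in stiff IPN, 399 and 279 in soft col:rBM, and 453 and 301 in stiff col. Its libraries had no order by replicate, with a difference of -0.07 (SE 0.210, adjusted p = 0.828). PDIA4 and PDIA6, protein disulfide isomerases, ranged from 2715 to 4271 and from 4628 to 6498, with differences of -0.14 and -0.20 (adjusted p = 0.388 and 0.188).

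Of the degradation and regulation genes of the ER arm, MANF passed between the replicates. HERPUD1, which sits in the ubiquitin ligase complex of ER-associated degradation and whose window holds elements of both arms, had 1249 and 1281 in soft IPN, 905 and 1298 in stiff IPN, 1676 and 1308 in soft col:rBM, and 2427 and 1247 in stiff col. The replicate 2 libraries lay within a narrow band, from 1247 to 1308, while replicate 1 spread from 905 in stiff IPN to 2427 in stiff col; the mean difference was -0.19 (SE 0.210, adjusted p = 0.527). XBP1 was at 2304 and 2465 in soft IPN, 1882 and 2052 in stiff IPN, 2706 and 2639 in soft col:rBM, and 2921 and 2295 in stiff col. The collagen gels were above stiff IPN in either replicate, and the replicate difference was -0.04 (SE 0.111, adjusted p = 0.812). EDEM1, which pulls misfolded glycoproteins towards degradation, was measured at 1661 and 2347 in soft IPN, 1918 and 1613 in stiff IPN, 2356 and 2833 in soft col:rBM, and 2435 and 2656 in stiff col. The collagen gels held the highest value of each replicate, and the difference was 0.16 (SE 0.131, adjusted p = 0.387), while SEL1L ranged from 977 to 1528 (-0.11, adjusted p = 0.467). MANF, a secreted protein that binds BiP, stood at 1854 and 1132 in soft IPN, 1542 and 1727 in stiff IPN, 2262 and 1028 in soft col:rBM, and 2909 and 1292 in stiff col. It was lower in replicate 2 except in stiff IPN, and MANF fell by 0.71 in the fit (SE 0.209, adjusted p = 0.0382; up to 0.155 without a library outside stiff IPN).

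Stiff IPN was the gel with the smallest replicate difference in 18 of 24 ATF4 arm genes and 6 of 16 ER arm genes, beside 4771 of 13369 genes tested. The median difference within a gel was 0.50 for the ATF4 arm and 0.12 for the ER arm in stiff IPN, 0.99 and -0.04 in soft IPN, 1.16 and -0.30 in soft col:rBM, and 0.51 and -0.44 in stiff col. Whether the replicate difference itself varies between gels was not tested, since each gel has 1 pair of libraries.

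Related genes outside the 40 give the wider pathway. Aminoacyl tRNA synthetases, which charge tRNAs and of which several are ATF4 targets, were higher in replicate 2 in 8 of 12 genes (CARS, GARS, IARS, MARS, NARS, TARS, WARS and YARS) and lower in 0, with a median of 0.54, beside 12.7% and 14.4% of all genes tested. Of the 12, 9 had an unadjusted p under 0.05, none of them lower, beside 5518 of 13369 genes. WARS, for tryptophan, was at 829 and 2359 in soft IPN, 1340 and 1563 in stiff IPN, 827 and 2388 in soft col:rBM, and 1176 and 2598 in stiff col, and its difference of 1.10 (adjusted p = 0.00918) was the largest of the list. Of 15 other ATF4 targets, 6 were higher (CEBPG, JDP2, GPT2, SLC1A4, SLC38A2 and SLC6A9) and 3 lower (PYCR1, ALDH18A1 and GDF15). The glycine transporter SLC6A9 was at 49 and 317 in soft IPN, 164 and 474 in stiff IPN, 66 and 351 in soft col:rBM, and 103 and 334 in stiff col, higher in replicate 2 of each gel by 2.07 on average (adjusted p = 0.00182). PYCR1 and ALDH18A1, enzymes of proline synthesis, went the other way at -0.76 and -0.40 (adjusted p = 0.0119 and 0.0393), as did the stress cytokine GDF15 at -0.78 (adjusted p = 0.0145). Among 12 sensors and regulators, EIF2S1, which encodes eIF2alpha, was higher by 0.36 (adjusted p = 0.0305), and the kinases EIF2AK1 (HRI) and EIF2AK4 (GCN2) were lower, at -0.46 and -0.43 (adjusted p = 0.0147 and 0.0183). These were 1 of 12 higher and 2 of 12 lower, beside 12.7% and 14.4% of all genes tested. An unadjusted p under 0.05 was found in 4 of the 12, beside 5518 of 13369 genes. Of 17 other ER folding and degradation genes tested, out of 18 listed, 3 were lower in replicate 2 and 0 higher in limma's test: SEC24D, of the coat that exports cargo from the ER (-1.44, adjusted p = 0.00181), the oxidase ERO1LB (-1.20, adjusted p = 0.00466) and EDEM3 (-0.36, adjusted p = 0.0427), beside 14.4% of all genes lower. Of the 17, 8 had an unadjusted p under 0.05, beside the 5518 of 13369.

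Other genes moved with the replicate number as well. Of 10 proliferation genes, 3 were higher in replicate 2 (MKI67 0.87, RRM2 1.11 and TYMS 1.15, adjusted p = 0.0454, 0.0158 and 0.009), beside 12.7% of all genes, and 4 of the 10 had an unadjusted p under 0.05, beside 5518 of 13369 genes. The list median was 0.53 in soft IPN, -0.35 in stiff IPN, 0.57 in soft col:rBM and 0.66 in stiff col. MKI67, a marker of cycling cells, had 1166 and 3097 in soft IPN, 1827 and 1416 in stiff IPN, 1209 and 2826 in soft col:rBM, and 1084 and 2488 in stiff col. Replicate 2 was higher outside stiff IPN and lower there. The basal keratin KRT5 was at 19940 and 44022 in soft IPN, 15259 and 38963 in stiff IPN, 14504 and 32735 in soft col:rBM, and 7417 and 24369 in stiff col, higher in replicate 2 of each gel, and so were KRT14, KRT17, ITGA6 and the sum over the 7 epithelial markers given above. The other 3 were mixed. EPCAM was lower in replicate 2 of soft IPN (314 and 181) and soft col:rBM (188 and 102). CDH1 was lower in that of soft col:rBM (2339 and 2200) and TP63 in that of stiff IPN (961 and 937), and each of the 3 was higher in its remaining gels. The lysosomal glycoprotein CD68 was at 4222 and 2092 in soft IPN, 1220 and 324 in stiff IPN, 5017 and 1348 in soft col:rBM, and 4360 and 990 in stiff col, lower in replicate 2 of each gel. Leukocyte markers summed to 4564 and 2203 in soft IPN, 1633 and 518 in stiff IPN, 5169 and 1437 in soft col:rBM, and 4596 and 1091 in stiff col, with CD68 the most abundant, 2 of 4 at or under the 3-read floor throughout and PTPRC at 0. The part that proliferation, keratin or CD68 levels play in the differences of the ATF4 and ER arms was not tested.

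The comparison of stiff with soft IPN changes stiffness with the ligands of the gel held the same. The calcium used for crosslinking differs along with stiffness, and the effects of calcium and stiffness cannot be told apart here. SLC7A11 was higher and VLDLR lower in stiff IPN of both trials, but neither passed the test. From the values above, SLC7A11 was higher by 1.57 in the first trial and 0.67 in the second, a mean of 1.12 (SE 1.10, adjusted p = 0.755). SEs of the gel comparisons come from the fit with gel as the only term, so the difference between trials is part of them. The adjusted p come from the same fit unless another is named. VLDLR differed by -0.80 and -2.95, a mean of -1.87 (SE 0.469, adjusted p = 0.491), and it was the only member with an unadjusted p under 0.05. Leaving out a library moved SLC7A11 over 0.21 to 2.02 and VLDLR over -2.52 to -1.23, and neither changed sign. In limma's fit to the 8 libraries, 0 of 40 members and 0 of 13369 genes (0%) passed, with 1245 genes at an unadjusted p under 0.05. With the replicate number as a block, 511 genes (3.82%) passed and 0 members, of which 4 had an unadjusted p under 0.05 (SHMT2, SESN2, VLDLR and SLC7A11), beside 3300 of 13369 genes. VLDLR came closest, with an adjusted p of 0.0558. Fitted to the 4 IPN libraries alone with the block, 271 of 12996 genes (2.09%) passed and SLC7A11 was the 1 member (adjusted p = 0.0407), and with a correction for GC content and length beside the block VLDLR passed (-1.88, adjusted p = 0.0478).

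As groups, neither arm had a common direction between the IPNs. The ATF4 arm had a median of -0.12, from -1.87 for VLDLR to 1.12 for SLC7A11, with medians of 0.01 and -0.55 in the trials, beside -0.01 over all genes. All 6 serine and one-carbon enzymes had means below 0, from -0.69 for PHGDH to -0.08 for PSAT1. Their trial medians, however, were 0.34 and -0.82, and 2 of the 6 were below 0 in both trials. PHGDH had 0.73 and -2.11. The ER arm had a median of -0.10, from -0.34 for CALR to 0.72 for SDF2L1, with trial medians of -0.20 and 0.11. The 4 co-chaperones all had means above 0, from 0.05 for DNAJB9, 3 of them in both trials. Leaving out soft IPN replicate 1 moved the ATF4 median to -0.81, and leaving out soft IPN replicate 2 moved it to 0.13. It was -0.02 and -0.40 without stiff IPN replicates 1 and 2. The ER median was -0.18 without soft IPN replicate 2 and -0.04 without stiff IPN replicate 1. In the related lists, with the block, DDIT4, an mTORC1 inhibitor, was lower in stiff IPN (-1.15, adjusted p = 0.0422 with the block and 0.491 without), and so was PYCR1 (-1.12, adjusted p = 0.0386 and 0.526). Both belong to the 15 other ATF4 targets, and the remaining related lists had no call with the block. Over all genes 511 of 13369 (3.82%) passed with it. DDIT4 had 22498 and 30781 in soft IPN, 14248 and 9866 in stiff IPN, 18616 and 23478 in soft col:rBM, and 15764 and 19105 in stiff col. Both of its stiff IPN libraries were the lowest of the 8.

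**Figure D5:**
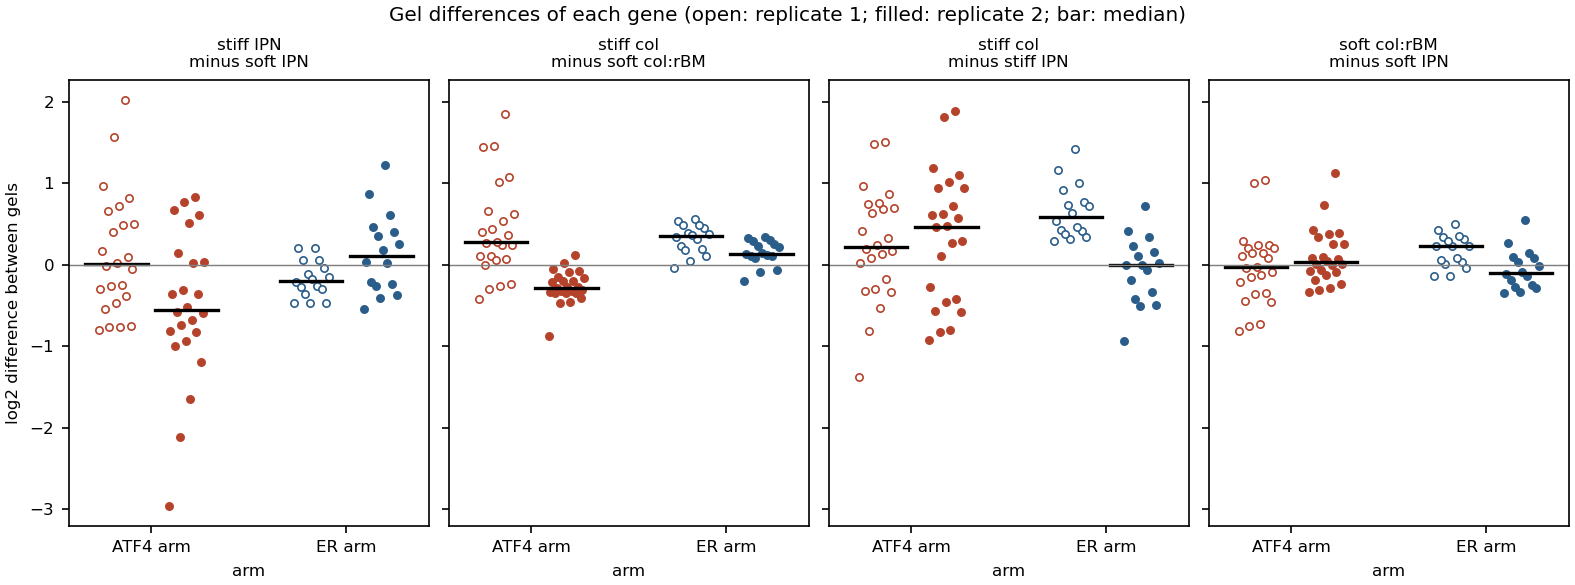
Differences between gels in log2(normalized count + 1) (vertical axis) for each gene, by arm, in 4 comparisons, with replicate 1 as open circles, replicate 2 as filled circles and bars at the medians. For stiff col minus soft col:rBM the ATF4 arm had medians of 0.28 and -0.28 in the trials and the ER arm 0.35 and 0.14, and for stiff IPN minus soft IPN the medians were 0.01 and -0.55, and -0.20 and 0.11.

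The collagen gels were compared to see what dense collagen does beside the softer mixture with rBM. No member passed in the 8-library fit. The ER arm had a median of 0.25 (0.35 and 0.14 in the trials, and 0.00 without stiff col replicate 1), and 12 of 16 genes were higher in both trials with 0 lower in both, beside 4118 and 4371 of 13369 genes. DNAJB9 had the largest mean, 0.41 (SE 0.270; 0.57 and 0.25 in the trials), and XBP1 the lowest, -0.05. The 4 co-chaperones, from 0.29 for DNAJC3, and the 4 chaperones, from 0.04 for CALR to 0.35 for HYOU1, all had means above 0. The ATF4 arm had a median of 0.03 with trials at 0.28 and -0.28, from -0.59 for VLDLR to 0.70 for CHAC1, whose trials stood at 1.85 and -0.46. In limma's fit to the 8 libraries, 0 of 40 members and 0 genes (0%) passed with or without the block, with 140 genes and 0 members at an unadjusted p under 0.05 without it and 497 genes and 1 member (ATF5) with it. In a fit to the 4 collagen gel libraries alone with the block, 970 of 12982 genes (7.47%) and 10 members passed.

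Of those 10 members 6 were higher and 4 lower in stiff col, beside 419 higher and 551 lower of 12982 genes in that fit. Higher in stiff col were DNAJB9 (0.41, adjusted p = 0.0251), DNAJB11 (0.36, adjusted p = 0.0187), HYOU1 (0.35, adjusted p = 0.0147), MANF (0.35, adjusted p = 0.00946), HSP90B1 (0.31, adjusted p = 0.00942) and DNAJC3 (0.29, adjusted p = 0.0319), all of the ER arm. Lower were VLDLR (-0.59, adjusted p = 0.0169), ATF5 (-0.44, adjusted p = 0.0104), PPP1R15A (-0.30, adjusted p = 0.0437) and SLC7A5 (-0.28, adjusted p = 0.0231), all of the ATF4 arm. MANF, for example, had 2262 in soft col:rBM and 2909 in stiff col in replicate 1, and 1028 and 1292 in replicate 2. That fit rests on 4 libraries, and in the 8-library fits each of the 10 had an adjusted p of 1. In fits without the block that leave out 1 of the 8 libraries, the sign of 4 of them turned, although within the trials each kept its sign (MANF 0.36 and 0.33, HSP90B1 0.32 and 0.30, SLC7A5 -0.24 and -0.33, PPP1R15A -0.26 and -0.35). Such a fit sets the lone library of a gel against the mean of both replicates of the other gel, so the replicate difference enters the value. Without soft col:rBM replicate 2, SLC7A5 stood at 0.92, HSP90B1 at -0.24 and MANF at -0.22, and these 3 turned without stiff col replicate 1 as well. PPP1R15A reached 0.27 and turned without soft col:rBM replicate 1 or stiff col replicate 2. Without soft col:rBM replicate 2 the ER arm median was 0.07, without stiff col replicate 2 it was 0.44 and without soft col:rBM replicate 1 it was 0.41; the ATF4 median went to -0.62 without soft col:rBM replicate 1 and to 0.63 without soft col:rBM replicate 2. It was 0.33 and -0.19 without stiff col replicates 1 and 2.

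Stiff col was set against stiff IPN to compare gel compositions at high stiffness, with dense collagen in place of both alginate and rBM. This comparison shares the stiff IPN libraries with that of the IPNs, and the stiff col libraries with that of the collagen gels. VLDLR was higher in stiff col of both trials (1.50 and 1.89), as were DNAJB9 (1.0 and 0.34) and EDEM1 (0.34 and 0.72). VLDLR had a mean of 1.70 (SE 0.469, adjusted p = 0.524), DNAJB9 of 0.67 (SE 0.270, adjusted p = 0.759) and EDEM1 of 0.53 (SE 0.226, adjusted p = 0.785), and these 3 were the members with an unadjusted p under 0.05. In limma's fit 0 members and 0 of 13369 genes (0%) passed, with 838 genes at an unadjusted p under 0.05. With the block, 330 genes (2.47%) and 0 members passed, 11 members having an unadjusted p under 0.05, beside 2530 of 13369 genes. SESN2 (0.68, adjusted p = 0.0689) and VLDLR (adjusted p = 0.0921) came closest, and SESN2 passed with the GC and length correction (0.71, adjusted p = 0.0451). In the 4 libraries alone with the block, 291 of 13073 genes (2.23%) passed, among them VLDLR (adjusted p = 0.0178) and PHGDH (1.39, adjusted p = 0.024). Leaving out a library moved PHGDH over 0.72 to 2.06, VLDLR over 1.27 to 2.13 and SESN2 over 0.42 to 0.93, and none changed sign.

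By arm, the medians were 0.33 for ATF4 and 0.37 for ER, beside 0.00 over all genes. In the ATF4 arm the trials had 0.22 and 0.47, and the range was -0.55 (SLC7A5) to 1.70 (VLDLR); PHGDH was higher in stiff col by 0.96 and 1.81. In the ER arm the first trial had 0.58 and the second -0.00, with 8 of 16 genes higher in both trials and 0 lower in both, beside 3765 and 3652 of 13369 genes. HERPUD1 shows the split: its mean of 0.68 (SE 0.336, adjusted p = 0.799) came from 1.42 in the first trial and -0.06 in the second. SDF2L1 had the lowest mean, -0.24, with 0.47 and -0.94. All 3 degradation genes and all 4 chaperones had means above 0, the former from 0.39 for SEL1L, with 2 of the 3 and 1 of the 4 above 0 in both trials. Without stiff IPN replicate 1 the ATF4 median was -0.05, without stiff col replicate 1 it was 0.76 and without stiff col replicate 2 it was 0.13, while the ER median was 0.06 without stiff col replicate 1 and 0.56 without stiff col replicate 2. In the related lists the block gave 1 call, SEC24D (1.09, adjusted p = 0.0394 with the block and 0.861 without), beside 330 of 13369 genes (2.47%). SEC24D was at 1301 and 564 in soft IPN, 961 and 470 in stiff IPN, 2251 and 686 in soft col:rBM, and 2670 and 767 in stiff col. Stiff col was above stiff IPN within each replicate, and replicate 1 was above replicate 2 throughout. The stress sensor ERN1, which encodes IRE1, had 101 and 112 in soft IPN, 85 and 58 in stiff IPN, 87 and 122 in soft col:rBM, and 181 and 139 in stiff col, and its mean difference of 1.16 was the largest of the sensors.

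The soft gels were compared to see how collagen in place of alginate, both with rBM, differs where stiffness is low. Soft IPN is shared with the comparison of the IPNs and soft col:rBM with that of the collagen gels. The arms were close to level. The ATF4 arm had a median of -0.04 (-0.03 and 0.03 in the trials), from -0.56 for STC2 to 0.72 for CHAC1, and the ER arm 0.04 (0.23 and -0.10), from -0.21 for HSP90B1 to 0.39 for EDEM1, which was higher in soft col:rBM by 0.50 and 0.27. SLC7A11 differed by 0.09 in the first trial and 1.12 in the second. In limma's fit 0 members and 0 genes (0%) passed, with 190 genes and 0 members at an unadjusted p under 0.05; with the block 3 genes (0.0224%) and 0 members passed, and in the 4 libraries alone with the block 42 of 12893 genes (0.326%) and 0 members. The ATF4 median was -0.40 without soft IPN replicate 1, 0.49 without soft IPN replicate 2, 0.55 without soft col:rBM replicate 1 and -0.57 without soft col:rBM replicate 2. In the same order the ER median was 0.13, -0.02, -0.09 and 0.26.

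Whether the stiff minus soft difference was itself different in the collagen gels and the IPNs was tested as an interaction. PHGDH had the largest value of the ATF4 arm, 1.31 (SE 1.74; 0.72 and 1.90 in the trials), with SLC7A11 the lowest at -0.73, and PDIA4 the largest of the ER arm, 0.49 (SE 0.288; 0.49 in both trials), with SDF2L1 the lowest at -0.35. VLDLR stood at 1.29 (SE 0.663), from stiff minus soft differences of -1.87 in the IPNs and -0.59 in the collagen gels. These SEs too are of the fit with gel as the only term and include the difference between trials. The median was 0.16 for the ATF4 arm (0.39 and 0.25 in the trials) and 0.30 for the ER arm (0.43 and -0.05), and 14 of 16 ER arm genes had means above 0, beside 6834 of 13369 genes. In both trials 6 of the 16 were above 0, and 10 had mixed signs. In limma's fit 0 members and 0 genes (0%) passed, with 278 genes and 0 members at an unadjusted p under 0.05, and with the block 2 genes (0.0150%) and 0 members passed, with 2 members and 1321 genes at an unadjusted p under 0.05. Single libraries set the ATF4 median here, which ran from -0.17 without soft col:rBM replicate 1 to 0.99 without soft col:rBM replicate 2 and was -0.13 and 0.85 without soft IPN replicates 2 and 1. It was -0.08 and 0.44 without stiff IPN replicates 1 and 2, and 0.71 without stiff col replicate 1, while the ER median was 0.01 without stiff col replicate 1 and 0.58 without stiff col replicate 2. Without soft col:rBM replicates 1 and 2 the ER median was 0.47 and 0.09.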

How the data were processed

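The authors trimmed 50-base paired reads with Trim Galore 0.3.3, aligned them to hg19 with TopHat2 2.0.13 per the processing notes (the methods name Bowtie2), filtered them with SAMtools 1.1, counted genes with HTSeq and made comparisons with DESeq2 in R 3.2.0. The deposited signal is the authors' normalized counts: gene counts divided by 1 factor per library and rounded. The factor of each library was read from the gaps this leaves between values, in a procedure tested on simulated data, and 3 reads served as the detection floor. The gene annotation and strand setting are not stated, so reads of overlapping or antisense genes cannot be told apart.

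From these values log2(value + 1) was computed for the 13369 genes at 10 or more in at least 2 of 8 libraries, and fitted with limma 3.58.1 in R 4.3.3 (gel as the term, mean-variance trend, robust moderation, Benjamini-Hochberg threshold 0.05); statmod 1.5.0, Python 3.11.15, numpy 2.4.6, scipy 1.17.1 and matplotlib 3.10.9 were also used. The replicate comparison has gel and replicate number as terms. The numbers pair the libraries: after removal of gel means, libraries with the same number deviated together in 6 of 6 pairs of gels (r across genes 0.28 to 0.82, genes not being independent), and the first component (47.4% of variance) put replicate 2 above replicate 1 in each gel. This pairing comes from the data and from the study's description of independent trials.

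The 40 genes, the arms, the related lists (sensors, other ATF4 targets, tRNA synthetases, other ER genes, proliferation) and the cell type markers were chosen with earlier results of these data known. Named are 18 usual readouts of the arms, every member that passed, the member of each arm with the largest difference in a comparison, and from each related list the genes that passed; the rule also asked for the 2 with the largest difference where fewer than 2 of a list passed, and of those between gels only ERN1 is given. Other members are named at the ends of ranges or for their values, after these were seen. RefSeq symbols gave a position for 23010 of 25369 genes (90.7%). Alternatives were other pseudocounts (0.5 and 5), no filter or a mean of 50 or more, 3 rescalings (TMM, median of ratios, upper quartile), the replicate block, the 4 libraries of each pair of gels, each library left out, no robust moderation, and a median in place of a mean for arm levels. Corrections for GC content and length, alone and with the block, were added after seeing the data. An epithelial marker of the original list is not reported here and is left out of the sums. Floors cover counting error only, and PCR copies are not independent molecules.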

Additional observations from a re-analysis of the deposited data

Results flagged for a closer look

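In 3 ER arm genes the stiff minus soft difference had opposite signs in the IPNs and in the collagen gels in both trials. PDIA4, a disulfide isomerase, had stiff minus soft differences of -0.15 and -0.41 in the IPNs and of 0.34 and 0.08 in the collagen gels; the difference of these differences, 0.49, did not pass limma's test (adjusted p = 1, and 0.53 with the replicate block). PDIA6, another isomerase, had -0.11 and -0.23 in the IPNs against 0.20 and 0.15 in the collagen gels, and its 0.34 did not pass either (adjusted p = 1, and 0.646 with the block). SEL1L, of ER-associated degradation, had -0.04 and -0.36 against 0.38 and 0.13, and its 0.46 did not pass (adjusted p = 1, and 0.514 with the block). Such opposite signs were seen in 7.5% of the 40 genes and in 1510 of 13369 genes tested (11.3%).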

How the results depend on the processing

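With 2 libraries per gel, a gel comparison rests on the spread between trials, and a p that misses the threshold does not show that values were equal. No alternative reversed the sign of the 20 members called between the replicates, while 4 of the 10 members called between the collagen gels in the 4 libraries with the block changed sign in fits without the block that leave out a library. In those fits the lone library of a gel is compared with both replicates of the other gel, so the replicate difference enters the gel differences and the arm medians; within each trial the 4 members kept their sign. TRIB3, ASNS, PSPH, SLC7A11, SLC7A5, SLC3A2 and HSP90B1 passed between the replicates in all 17 alternatives run for that comparison, and no rescaling moved the median of all genes by over 0.1. Read counts could not be recovered as whole reads, so the tests of edgeR and DESeq2 on counts were not run. In settings that leave out a library, the lone library of a gel was assumed to vary like the other gels, and in the replicate comparison leaving out either library of a gel removes that gel's difference.

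Genes passing between stiff and soft IPN went from 0 to 511 with the replicate block, 1 in the 4 libraries alone, 271 in the 4 libraries with the block and 646 with the block and the GC and length correction, with 1 member in each of the last 2. For stiff col against soft col:rBM, 970 genes and 10 members passed in the 4 libraries with the block and 3 genes with the block and the correction. For stiff col against stiff IPN the counts were 4 genes with a pseudocount of 5, 330 with the block, 291 in the 4 libraries with the block (2 members), 465 with the block and the correction (1 member), and 0 to 5 with a library left out. Between the soft gels 3, 42 and 5 genes passed with the block, in the 4 libraries with the block, and with the block and the correction. For the interaction 2 genes passed with the block, and 2 with the block and the correction. The block alone changed no call of a member in any gel comparison. It removes the difference between trials from the spread, as its construction shows; the cause of the other changes was not tested.

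Between the replicates, leaving out a library gave 1208 to 5845 genes and 8 to 28 members, against 3619 and 20; all other settings gave 19 to 21 members. Leaving out a library moved the ATF4 arm median over -0.81 to 0.13 between the IPNs, -0.62 to 0.63 between the collagen gels, -0.052 to 0.76 between the stiff gels, -0.57 to 0.55 between the soft gels and -0.17 to 0.99 for the interaction, and the ER arm median over 0.0018 to 0.44 between the collagen gels and -0.30 to -0.055 between the replicates. The ER arm median ran over -0.18 to -0.042 between the IPNs, 0.065 to 0.56 between the stiff gels, -0.093 to 0.26 between the soft gels and 0.014 to 0.58 for the interaction. The GC and length correction, with or without the block, moved the ATF4 median to 0.055 from -0.039 between the soft gels and to 0.094 from 0.030 between the collagen gels. It moved the ER median to -0.16 from -0.10 between the IPNs and to 0.073 from 0.041 between the soft gels. Taken as a median over genes, the ER arm level was -0.046 in place of -0.16 in soft IPN replicate 2, -0.11 in place of -0.0095 in stiff IPN replicate 2 and -0.030 in place of -0.011 in soft IPN replicate 1. The ATF4 arm level was -0.34 in place of -0.52 in soft IPN replicate 1, -0.017 in place of -0.14 in stiff col replicate 1 and 0.080 in place of 0.038 in stiff IPN replicate 2. With the filter at a mean of 50 the ATF4 median between the soft gels was -0.068.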
